A study of Mus musculus with 10 samples.

Results

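The 39 genes described here encode the contractile and metabolic machinery of skeletal muscle fibres, and they were followed in RNA from sorted endothelial cells. They were chosen by symbol, as a fixed list of muscle fibre genes, with earlier results of these data known. All 39 were found among the 23284 gene rows of the count table. RNA-Seq covered 3 populations. Lymph nodes gave lymphatic (LN-LEC, 4 libraries) and blood (LN-BEC, 3 libraries) endothelial cells, and the diaphragm gave lymphatic cells only (D-LEC, 3 libraries). All mice were untreated wild type C57BL/6 (B6) animals aged 6 to 8 weeks. The lymph node cells came from inguinal, axillary, brachial, cervical and mesenteric nodes that were combined, whereas D-LEC came from the diaphragm, a sheet of skeletal muscle. Leukocytes were removed on beads against CD45, and CD31+ cells were then sorted by PDPN, a protein found on LEC and absent from BEC. Each library was made from a pool of several mice, so the spread between libraries describes pools and not single animals. The question asked of the data was where the muscle genes were detected and whether their levels varied together over the 3 D-LEC libraries.

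Skeletal muscle fibres are giant cells filled with sarcomeres, in which thick filaments of myosin pull on thin filaments of actin that are anchored in the Z-disc. Troponin and tropomyosin on the thin filament switch contraction on when calcium is released from the sarcoplasmic reticulum, and creatine kinase, myoglobin and glycogen phosphorylase supply energy and oxygen. Fast and slow fibres use different members of the myosin, troponin and light chain families, and the diaphragm contains both kinds. Endothelial cells carry no sarcomeres.

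The libraries held between 22429940 and 48906070 counted fragments, and values below are normalized counts, meaning counts divided by the size factor of the library. The authors reported an average purity after sorting that was highest for LN-LEC and lowest for D-LEC. Marker genes followed the sort labels. The summed level of 5 LEC markers (Prox1, Lyve1, Pdpn, Flt4 and Reln) was 405467 ± 15816 (SD, n = 3) in D-LEC, 107013 ± 10128 (SD, n = 4) in LN-LEC and 4951 ± 2661 (SD, n = 3) in LN-BEC. The summed level of 4 BEC markers (Nrp1, Flt1, Vwf and Notch4) was 70733 ± 1732 (SD, n = 3) in LN-BEC, against 529.9 ± 93.6 (SD, n = 3) in D-LEC and 1091 ± 290 (SD, n = 4) in LN-LEC. Levels of markers of other cell types are given beside the muscle genes below. In bulk RNA, fewer cells of a type and less RNA per cell cannot be told apart.

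Promoter sequences of 4 muscle genes are shown because these genes behaved differently in the libraries described below: Acta1 and Myh1 were nearly absent from lymph node cells, Pygm was present in all 3 populations and highest in D-LEC, and Ttn was highest in lymph node cells. Each sequence is from RefSeq on GRCm38.p6 and runs from 250 bases before to 50 bases after the annotated start. Capitals mark a CArG box, which is bound by serum response factor, or a MEF2 site, which is bound by the MEF2 factors of muscle. Acta1 lies on the minus strand (chr8:123894726-123895025), Myh1 on the plus strand (chr11:67199852-67200151), Pygm on the plus strand (chr19:6384158-6384457) and Ttn on the minus strand (chr2:76982498-76982797).
Acta1: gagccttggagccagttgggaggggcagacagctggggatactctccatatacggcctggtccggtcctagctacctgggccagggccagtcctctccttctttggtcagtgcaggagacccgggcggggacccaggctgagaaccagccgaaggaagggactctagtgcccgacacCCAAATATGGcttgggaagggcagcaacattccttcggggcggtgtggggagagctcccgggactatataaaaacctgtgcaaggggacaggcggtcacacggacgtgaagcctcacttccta
Myh1: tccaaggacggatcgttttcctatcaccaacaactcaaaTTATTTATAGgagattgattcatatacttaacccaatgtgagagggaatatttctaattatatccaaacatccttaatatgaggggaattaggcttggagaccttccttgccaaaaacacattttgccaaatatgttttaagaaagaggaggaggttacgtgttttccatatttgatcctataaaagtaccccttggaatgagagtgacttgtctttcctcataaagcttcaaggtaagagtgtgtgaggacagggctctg
Pygm: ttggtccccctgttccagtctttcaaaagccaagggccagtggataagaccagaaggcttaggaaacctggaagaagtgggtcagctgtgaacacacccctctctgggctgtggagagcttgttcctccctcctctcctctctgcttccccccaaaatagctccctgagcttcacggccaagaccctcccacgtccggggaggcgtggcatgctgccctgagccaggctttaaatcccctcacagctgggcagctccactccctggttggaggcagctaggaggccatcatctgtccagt
Ttn: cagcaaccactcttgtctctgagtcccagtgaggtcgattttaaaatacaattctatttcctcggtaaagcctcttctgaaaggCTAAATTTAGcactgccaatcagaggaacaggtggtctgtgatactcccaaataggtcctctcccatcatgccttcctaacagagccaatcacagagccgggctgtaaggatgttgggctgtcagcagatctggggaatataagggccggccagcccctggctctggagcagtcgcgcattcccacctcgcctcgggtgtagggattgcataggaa
The CArG box of Acta1 began 73 bases before the start, and the MEF2 sites of Myh1 and Ttn began 211 and 166 bases before it. In the Pygm window neither motif was matched, which says only that these letters are not in this window. RefSeq entries were matched for 32 of the 39 genes, with 39 promoter windows among them. A CArG box was found in 15.4% of these windows and in 1.63% of 32851 promoter windows of the whole table, a MEF2 site in 15.4% and 3.19%, an E-box (CANNTG) in 84.6% and 72.3%, and a TATA box (TATAAA) in 20.5% and 13.6%. Both strands were searched, and no overlap between different motifs was removed. A match is a description of the letters and not evidence of a bound site. CArG boxes were matched in 12.5% of the 24 windows of genes called higher in D-LEC than in both lymph node populations. In the 15 windows of the other muscle genes the share was 20%. Windows of the same gene can overlap, and the overlapping windows of Ldb3 were each counted as a match. Counted by gene, CArG boxes were matched in 3 of 19 genes called higher and in 2 of 13 others. The difference between windows was therefore not seen between genes, and neither was tested. Over all 32 genes with a window, a CArG box was matched in 5.

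Most of the muscle genes were higher in D-LEC than in lymph node endothelium. In the edgeR quasi-likelihood test with Benjamini-Hochberg adjustment over 15355 genes, 26 of 39 were higher in D-LEC than in LN-LEC and 3 were lower (Ttn, Tnnt1 and Des), where 21.7% of all genes tested were called higher and 24.1% lower. Against LN-BEC, 28 were higher and 3 were lower (Ttn, Neb and Des), where 22.5% of all genes were called higher and 25.6% lower. The 2 comparisons share the D-LEC libraries. In both of them 24 of the 39 genes were higher and 2 were lower, against 13.8% and 15.3% of all genes. The median log2 fold change of the 39 was 3.08 over LN-LEC and 2.70 over LN-BEC, with genes absent from the lymph node libraries set at the lowest fold that their counts allow, and that of all genes was -0.03 and -0.05. All 39 passed the filter on low counts, but 8 of them (Myh2, Myh4, Myh7, Myl2, Myl3, Myoz1, Myot and Mb) passed through D-LEC alone and had to be higher there. Among the other 31, 16 were higher in both comparisons. Every D-LEC library lay above every lymph node library in 25 of the 39 genes, where 16.9% of all genes did so. These 25 include genes that passed through D-LEC alone, such as Myl2 and Myot, in which such a separation was likely beforehand. The median fold changes above also include the 8 genes.

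**Figure D1:**
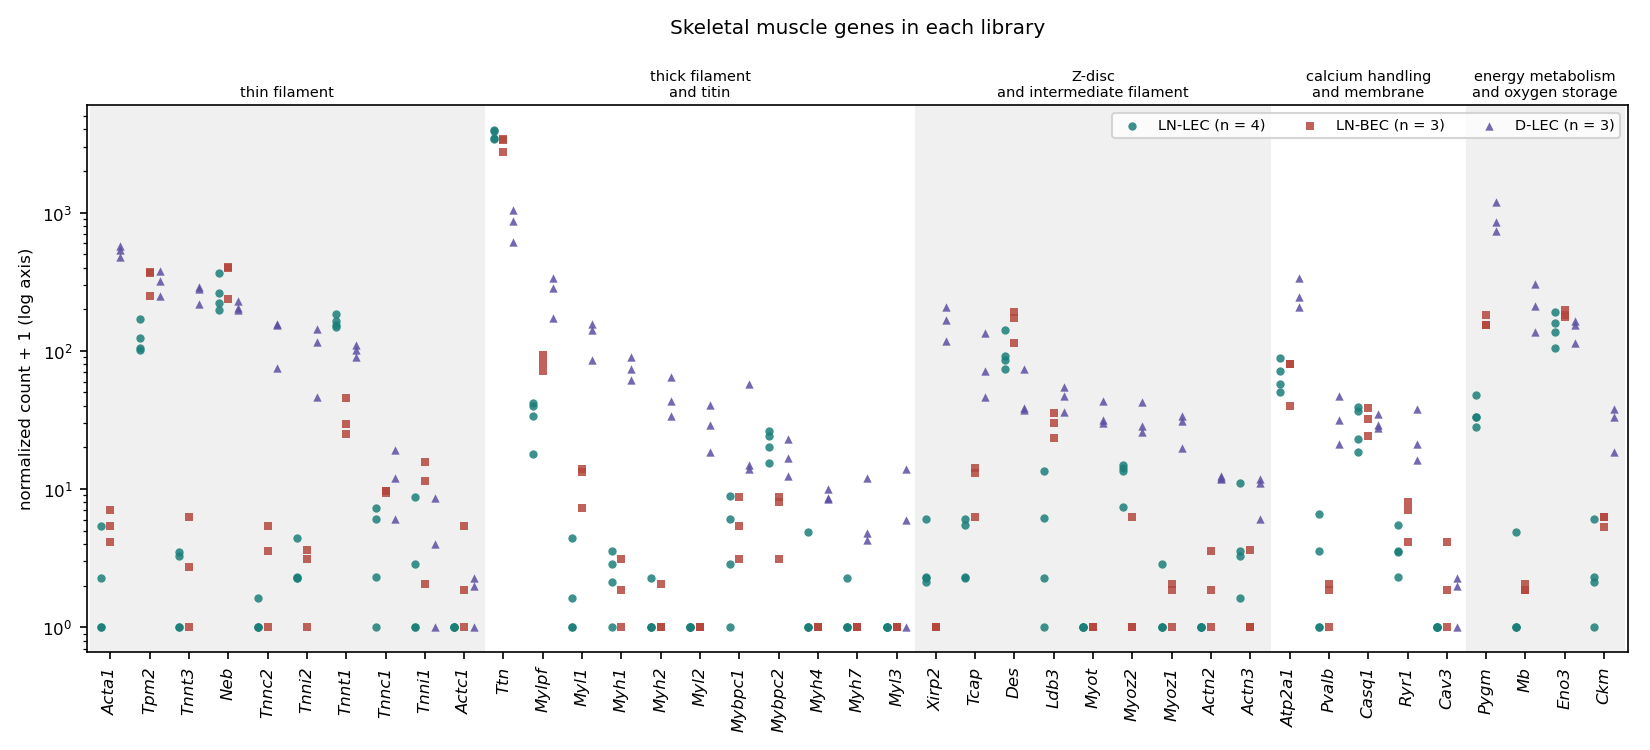
Normalized counts plus 1 (log axis) of the 39 muscle genes in each of the 10 libraries, grouped by role and ordered by D-LEC mean; each point is 1 library. D-LEC points (triangles) lie above all lymph node points in 25 genes, whereas those of Ttn lie below them and those of Casq1 and Eno3 lie among them.

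Acta1, the actin of skeletal muscle thin filaments (mm9 chr8:126415667-126418636), was almost absent from lymph node libraries. Its normalized counts were 476, 535 and 573 in D-LEC replicates 1, 2 and 3, between 3.15 and 6.05 in LN-BEC, and 0, 1.27, 0 and 4.401 in LN-LEC. Nearly all of the signal was therefore in D-LEC, and the groups did not overlap. The log2 fold change was 8.00 ± 0.43 (SE) over LN-LEC, from 8 fragments in all 4 LN-LEC libraries (edgeR quasi-likelihood test, adjusted p = 5e-09), and 6.80 ± 0.43 over LN-BEC (edgeR, adjusted p = 2.2e-08). Actc1, the actin of heart and embryonic muscle, had only 2 fragments in the 3 D-LEC libraries together and 6 in LN-BEC, so it was not detectable as different at this depth.

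The 3 troponin genes of fast fibres were also higher in D-LEC in both comparisons. Tnnt3, the subunit that binds tropomyosin, was at 216, 290 and 278 in D-LEC and at most 5.25 in any lymph node library, with log2 fold changes of 7.36 ± 0.58 and 6.67 ± 0.61 over LN-LEC and LN-BEC (edgeR, adjusted p = 2.6e-07 and 8.7e-07). Tnni2, the inhibitory subunit, was at 45.4, 114 and 144 in D-LEC and at most 3.39 elsewhere (log2 fold changes 5.74 ± 0.61 and 5.93 ± 0.69; edgeR, adjusted p = 3.9e-06 and 7.8e-06). Tnnc2, the subunit that binds calcium, was at 74.4, 154 and 154 in D-LEC, with a single fragment over the LN-LEC libraries and a mean of 2.32 ± 2.20 (SD, n = 3) in LN-BEC (edgeR, adjusted p = 4.9e-07 and 4.5e-06). In 25.6% of its 100-base windows Tnnc2 shares sequence with transcripts of Ube2c in the annotation. The slow fibre counterparts Tnni1, at 7.57, 3.01 and 0 in D-LEC, and Tnnc1, at 5.05, 11.02 and 18.2, were not called in either comparison in edgeR. Tnnc1 had an adjusted p of 0.08 over LN-LEC, and it was called higher there in limma-voom (adjusted p = 0.041) and in edgeR without LN-LEC replicate 4 (adjusted p = 0.043). Over the D-LEC libraries Tnnc1 was lowest in replicate 1 and highest in replicate 3, as was Tnni2.

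Tnnt1, the slow troponin T, had its own pattern. Its level was 147 to 184 in LN-LEC (median 157), 24.2, 28.5 and 44.6 in LN-BEC, and 89.6, 101 and 110 in D-LEC. D-LEC lay between the lymph node populations with no overlap, lower than LN-LEC (log2 fold change -0.70 ± 0.22; edgeR, adjusted p = 0.02) and higher than LN-BEC (1.62 ± 0.25; adjusted p = 0.00012). The lower call was lost, with adjusted p of at least 0.051, without LN-LEC replicate 1, D-LEC replicate 1 or D-LEC replicate 2. Its nearest neighbour is Tnni3, 2333 bases away on the same strand, which was at 967 to 1188 in LN-LEC, 105 to 173 in LN-BEC and 115 to 151 in D-LEC. The part of that neighbour in the Tnnt1 counts was not tested.

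The other thin filament genes were not confined to D-LEC. Tpm2, a beta tropomyosin that is also made outside muscle, was at 250, 320 and 376 in D-LEC and at 247, 362 and 372 in LN-BEC, which overlapped. Over LN-LEC, at 101 to 169, it was higher in both populations, by a log2 fold change of 1.34 ± 0.21 in D-LEC (edgeR, adjusted p = 0.00016). Neb, the giant protein that runs along the thin filament, was at 196, 202 and 230 in D-LEC and at 197 to 404 in lymph node libraries. It was lower than in LN-BEC (log2 fold change -0.73 ± 0.24; edgeR, adjusted p = 0.024) and not called against LN-LEC. That call was lost, with adjusted p of at least 0.072, without LN-BEC replicate 1 or 2 or D-LEC replicate 1 or 2. Of the 10 thin filament genes, 4 were higher in D-LEC in both comparisons, all of them Acta1 or fast troponins, where 13.8% of all genes were.

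Of the 11 genes of the thick filament and titin, 9 were higher in D-LEC in both comparisons, but 5 of these (Myh2, Myh4, Myh7, Myl2 and Myl3) had passed the filter through D-LEC alone. Of the other 6, 4 were higher in both, where 13.8% of all genes were. The adult fast myosin heavy chains gave few fragments and were nearly absent elsewhere. Myh1, the type IIx heavy chain (mm9 chr11:67013616-67038077), was at 60.5, 73.1 and 89.2 in D-LEC and at most 2.59 in any lymph node library (log2 fold change over LN-LEC 5.54 ± 0.59; edgeR, adjusted p = 3.7e-06). Myh2, the type IIa heavy chain, was at 32.8, 42.1 and 63.6 in D-LEC, against 1 fragment in all of LN-LEC and 1 in all of LN-BEC. Myh4, the type IIb heavy chain, was at 7.57, 9.02 and 7.44, and Myh7, the slow and cardiac heavy chain, at 3.78, 11.02 and 3.31. Against LN-LEC, Myh4 and Myh7 were called in edgeR at adjusted p of 0.04 and 0.026, and both calls were lost in the DESeq2 Wald test. Without LN-LEC replicate 2, 3 or 4 or any 1 of the D-LEC replicates the Myh4 call was lost, with adjusted p of at least 0.07, and without LN-LEC replicate 1, 2 or 3 or D-LEC replicate 2 the Myh7 call was lost, with adjusted p of at least 0.06. Per kilobase of exon, Myh1 made up 58.0%, 54.3% and 54.8% of the 4 adult heavy chains in D-LEC replicates 1, 2 and 3, Myh2 31.1%, 30.9% and 38.6%, Myh4 7.26%, 6.69% and 4.57%, and Myh7 the rest. The order from Myh1 to Myh2 was the same in all 3 libraries. The heavy chain genes share 3.84% to 10.7% of their 100-base windows with each other or with Myh6, Myh8 or Myh13, and reads without a unique position were left out of the counts, so their levels are uncertain. In Myh7, 7.65% of exon bases also overlap D830015G02Rik.

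The light chains were more abundant. Mylpf, the fast regulatory light chain, was at 172, 283 and 335 in D-LEC, 70.05 to 92.4 in LN-BEC and 17.0 to 40.6 in LN-LEC, so that the 3 populations formed separate steps. Its log2 fold changes were 3.04 ± 0.31 and 1.70 ± 0.31 over LN-LEC and LN-BEC (edgeR, adjusted p = 2.3e-06 and 0.00052), and 1.34 ± 0.31 in LN-BEC over LN-LEC (adjusted p = 0.0034). Mylpf lies 155 bases from Sept1, a gene on the opposite strand, and strand was not used in the counting. Myl1, the fast essential light chain, was at 84.5, 141 and 156 in D-LEC, at 6.30 to 12.97 in LN-BEC and at most 3.39 in LN-LEC. Its log2 fold changes were 6.82 ± 0.61 and 3.57 ± 0.51 (edgeR, adjusted p = 6.4e-07 and 5e-05). Myl2, the slow and ventricular regulatory light chain, had no fragment in any of the 7 lymph node libraries and was at 17.7, 28.1 and 39.7 in D-LEC, at least 38.3-fold higher than in LN-LEC and at least 30.8-fold higher than in LN-BEC, with 3 counts over a population as the limit. Myl3, its essential partner, was at 0, 13.03 and 4.96 in D-LEC and had no lymph node fragment either. Its calls (edgeR, adjusted p = 0.032 and 0.043) were lost in the DESeq2 Wald test, without D-LEC replicate 2 or 3, and without any 1 library of the lymph node population compared.

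The myosin-binding proteins C were less clear. Mybpc1, the slow form, was at 13.9, 13.03 and 56.2 in D-LEC and at most 7.92 elsewhere, with log2 fold changes of 2.89 ± 0.81 and 2.50 ± 0.85 (edgeR, adjusted p = 0.0097 and 0.026). D-LEC replicate 3 stood apart from the other D-LEC libraries, and without it the adjusted p was at least 0.071 in both comparisons. The call against LN-BEC was also lost without LN-BEC replicate 1 or 3. Mybpc2, the fast form, was at 11.4, 22.04 and 15.7 in D-LEC, within the LN-LEC range of 14.5 to 25.4 in 2 of 3 libraries, and was not called against LN-LEC. Its call against LN-BEC (log2 fold change 1.499 ± 0.55; edgeR, adjusted p = 0.037) was lost in the fit of these populations alone and without LN-LEC replicate 1, LN-BEC replicate 1 or 3, or D-LEC replicate 2 or 3.

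Ttn, the giant spring of the sarcomere, went the other way. The normalized counts were 3926, 3948, 3445 and 3392 in LN-LEC, 3342, 3432 and 2759 in LN-BEC, and 613, 1047 and 874 in D-LEC. Every D-LEC library lay below every lymph node library, which was true of no other gene of the 39 and of 15.9% of all genes tested. Ttn was lower in D-LEC by log2 fold changes of -2.14 ± 0.17 and -1.91 ± 0.17 (edgeR, adjusted p = 3.5e-07 and 1.1e-06). With 104320 exon bases (mm9 chr2:76542041-76820604), its level per kilobase was 8.10 in D-LEC, while LN-BEC had 30.5 and LN-LEC 35.3, whereas Acta1 was at 368 per kilobase in D-LEC and 0.99 in LN-LEC. Ttn made up most of the summed count of the 39 genes in lymph node cells, which was 4702 ± 408 (SD, n = 4) in LN-LEC and 4674 ± 427 (SD, n = 3) in LN-BEC, against 5223 ± 744 (SD, n = 3) in D-LEC. Without Ttn the sums were 1024 ± 109 (SD, n = 4), 1496 ± 115 (SD, n = 3) and 4378 ± 611 (SD, n = 3).

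**Figure D2:**
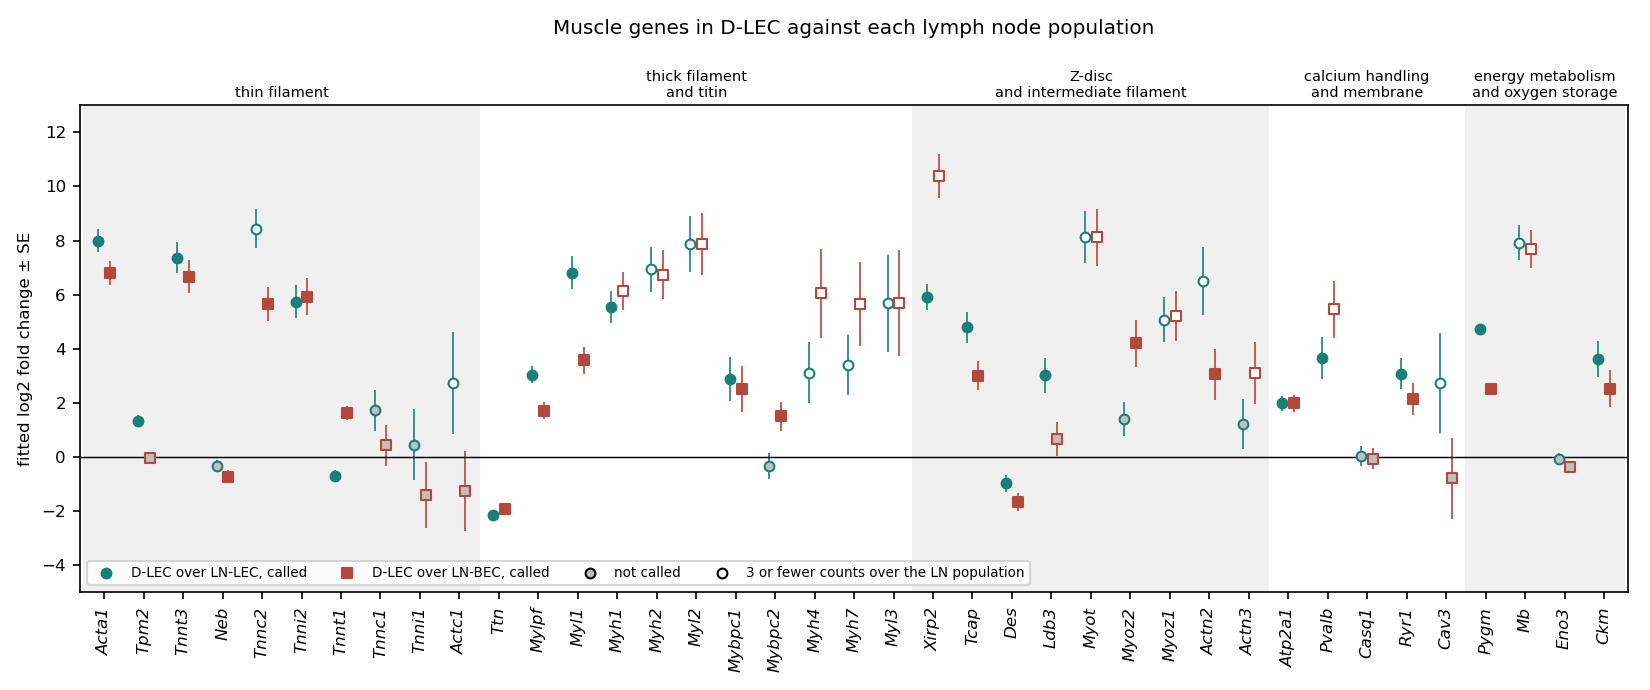
Fitted log2 fold change ± SE of each muscle gene in D-LEC over LN-LEC (circles) and over LN-BEC (squares), by role; open symbols have 3 or fewer counts over the lymph node population and depend on the prior count, and grey symbols were not called. Ttn and Des lie below 0 in both comparisons, and 24 genes were called above 0 in both.

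Among the 9 genes of the Z-disc and the intermediate filament, 5 were higher in D-LEC in both comparisons, with Myoz1 and Myot among them, which had passed the filter through D-LEC alone. Of the other 7, 3 were higher in both, where 13.8% of all genes were. Xirp2, a protein of the intercalated disc and of muscle attachment sites that binds actin and alpha-actinin, was at 117, 165 and 207 in D-LEC, 1.13 to 5.03 in LN-LEC and 0 in all 3 LN-BEC libraries. It was higher than in LN-LEC by a log2 fold change of 5.91 ± 0.47 (edgeR, adjusted p = 9.7e-07) and at least 177-fold higher than in LN-BEC. Tcap, the titin cap, was at 45.4, 70.1 and 133 in D-LEC, at 5.25 to 13.1 in LN-BEC and at 1.26 to 5.08 in LN-LEC (log2 fold changes 4.79 ± 0.57 and 3.00 ± 0.54; edgeR, adjusted p = 1.1e-05 and 0.00042). The separation was complete for both genes. Myot, which crosslinks actin at the Z-disc, had no fragment in any lymph node library and was at 29.0, 42.1 and 30.6 in D-LEC, at least 45.6-fold and 36.7-fold higher. Myoz1, which ties calcineurin to the fast fibre Z-disc, was at 18.9, 30.1 and 33.1 in D-LEC and at most 1.89 elsewhere. Actn2, an alpha-actinin, was at 11.4, 11.02 and 10.7 in D-LEC, at 0 in LN-LEC and at most 2.59 in LN-BEC (edgeR, adjusted p = 0.0015 and 0.021). Without LN-BEC replicate 1 the adjusted p against LN-BEC was 0.063.

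The remaining Z-disc genes were shared with lymph node cells. Myoz2, the slow fibre counterpart of Myoz1, was at 27.7, 25.05 and 41.3 in D-LEC and at 6.48 to 13.96 in LN-LEC, which did not overlap but gave an adjusted p of 0.085 in edgeR. The DESeq2 Wald test and limma-voom called it, as did the fit of these 2 populations alone and the fit without LN-BEC replicate 3. Against LN-BEC, at 0, 0 and 5.25, it was higher (log2 fold change 4.20 ± 0.86; edgeR, adjusted p = 0.0012). Ldb3, a Z-disc adaptor, was at 35.3, 46.1 and 53.7 in D-LEC and at 22.5 to 34.7 in LN-BEC, and only the difference from LN-LEC was called (log2 fold change 3.01 ± 0.65; edgeR, adjusted p = 0.0019). Actn3, the fast fibre alpha-actinin, was at 5.05, 10.02 and 10.7 in D-LEC, and its call against LN-BEC (edgeR, adjusted p = 0.04) was lost without LN-LEC replicate 1 or 3, LN-BEC replicate 2 or 3, or D-LEC replicate 2 or 3. Des, the intermediate filament of muscle that is also made by pericytes and smooth muscle, was at 37.8, 36.1 and 73.5 in D-LEC, 72.4 to 140 in LN-LEC and 113 to 189 in LN-BEC. It was lower in D-LEC by log2 fold changes of -0.98 ± 0.32 and -1.67 ± 0.34 (edgeR, adjusted p = 0.024 and 0.001), and the call against LN-LEC was lost, with adjusted p of at least 0.078, without LN-LEC replicate 1 or D-LEC replicate 1 or 2. Of the 13 smooth muscle and pericyte markers, which include Des, 10 were lower in D-LEC than in LN-LEC and 11 than in LN-BEC. Of all genes tested, 24.1% and 25.6% were lower. In both comparisons 2 of the 13 were higher in D-LEC. The summed level of the 13 was 4860 ± 290 (SD, n = 3) in D-LEC, 6812 ± 942 (SD, n = 4) in LN-LEC and 8961 ± 1110 (SD, n = 3) in LN-BEC. Smtn and Kcnj8 had the most D-LEC fragments among them, with means of 3543 and 859. The part of those cells in the Des level was not tested.

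Calcium handling genes were divided. Atp2a1, the calcium pump of fast fibres, was at 207, 244 and 338 in D-LEC and at 38.9 to 88.2 in lymph node libraries, with log2 fold changes of 1.98 ± 0.28 and 1.98 ± 0.31 (edgeR, adjusted p = 6.2e-05 and 0.00012). Of its exon bases, 1.4% lie in Rabep2 on the opposite strand. Pvalb, the calcium buffer of fast fibres, was at 20.2, 46.1 and 30.6 in D-LEC and at most 5.66 elsewhere (log2 fold change over LN-LEC 3.66 ± 0.79; edgeR, adjusted p = 0.0018). Ryr1, the calcium release channel, was at 15.1, 20.0 and 37.2 in D-LEC and at most 7.003 elsewhere (log2 fold changes 3.08 ± 0.58 and 2.13 ± 0.59; edgeR, adjusted p = 0.00066 and 0.0089). Without D-LEC replicate 3 its adjusted p against LN-BEC was 0.062. Casq1, the calcium store of the fast sarcoplasmic reticulum, was at 26.5, 34.1 and 28.1 in D-LEC, inside the range of 17.6 to 38.4 over the lymph node libraries. The log2 fold change of Casq1 was 0.05 ± 0.37 over LN-LEC and -0.06 ± 0.39 over LN-BEC (edgeR, adjusted p = 0.93 and 0.92). Cav3, the caveolin of muscle membranes, had 2 fragments in D-LEC, 4 in LN-BEC and 0 in LN-LEC.

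Energy genes included the member with the most fragments in D-LEC. Pygm, muscle glycogen phosphorylase (mm9 chr19:6384429-6398459), was at 1187, 735 and 858 in D-LEC, 153, 153 and 180 in LN-BEC, and 27.1 to 47.0 in LN-LEC. The populations formed 3 separate steps, with log2 fold changes of 4.73 ± 0.20 over LN-LEC and 2.51 ± 0.19 over LN-BEC (edgeR, adjusted p = 3.6e-10 and 1.1e-07), and 2.22 ± 0.20 in LN-BEC over LN-LEC (adjusted p = 8.8e-07). Mb, the oxygen store myoglobin, was at 136, 208 and 306 in D-LEC, against 3 fragments over all LN-LEC and 3 over all LN-BEC libraries (edgeR, adjusted p = 3.6e-07 and 8.9e-07). In Mb, 4.95% of exon bases overlap Apol6, and the counts of that overlap cannot be assigned to either gene. Ckm, muscle creatine kinase, was at only 17.7, 37.1 and 32.2 in D-LEC and at most 5.25 elsewhere (log2 fold changes 3.62 ± 0.68 and 2.53 ± 0.68; edgeR, adjusted p = 0.00058 and 0.0075). Ckm shares 12.2% of its 100-base windows with A930016O22Rik in the annotation. Eno3, muscle enolase, was at 112, 164 and 152 in D-LEC, within the range of 104 to 195 over the lymph node libraries, and was not called (edgeR, adjusted p = 0.84 and 0.21).

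Lymph node populations differed less from each other in these genes. Between LN-BEC and LN-LEC, 6 of 39 were higher in LN-BEC (Tpm2, Myl1, Mylpf, Ldb3, Tcap and Pygm) and 4 were lower (Tnnt1, Mybpc2, Myoz2 and Xirp2), where 18.4% of all genes tested were higher and 19.8% lower. Among the 6 higher genes the fold was largest for Myl1 (log2 fold change 3.25 ± 0.70; edgeR, adjusted p = 0.0021) and among the lower ones Xirp2 had no LN-BEC fragment and 11 in LN-LEC. The Tcap call was lost in limma-voom, in the fit of these populations alone, and without LN-LEC replicate 1 or 4 or LN-BEC replicate 1 or 2. The Xirp2 call was lost in the fit of these populations alone and without LN-LEC replicate 4, and the Myoz2 call without LN-BEC replicate 1 or 2.

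The 24 genes that were higher in both comparisons were summed to follow their mixture. Their summed normalized count was 159 ± 14.8 (SD, n = 4) in LN-LEC and 360 ± 15.96 (SD, n = 3) in LN-BEC, and 3008, 3316 and 3919 in D-LEC replicates 1, 2 and 3. These genes were chosen by the D-LEC comparisons, so the difference of their sums is a description. As a share of all counted fragments the 24 genes made up 0.0102%, 0.0109% and 0.0132% in D-LEC. Per kilobase of exon, Acta1 held 18.8%, 16.1% and 14.9% of the sum in D-LEC, Mylpf 12.9%, 16.1% and 16.5%, and Tnnt3 10.9%, 11.1% and 9.23%. Other shares differed more between the D-LEC libraries. Pygm held 23.7%, 11.1% and 11.2%, Tnni2 3.86%, 7.38% and 8.04%, and Tcap 2.72%, 3.19% and 5.23%. In LN-LEC the mixture was different, with Mylpf at 30.7% to 56.1% and Acta1 at no more than 4.20%.

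**Figure D3:**
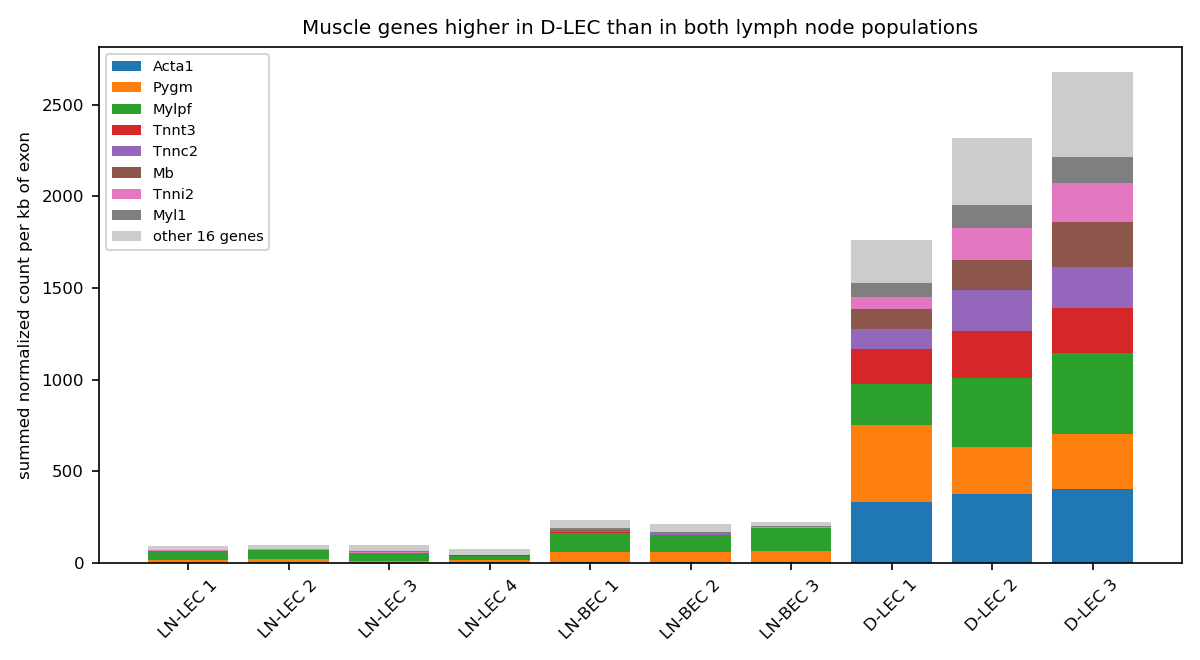
Summed normalized count per kilobase of exon of the 24 genes higher in D-LEC than in both lymph node populations, in each library, split into the 8 genes with the largest mean share in D-LEC and the other 16. D-LEC bars reach 1764, 2321 and 2682, against at most 235 in any lymph node library, and the Pygm segment is largest in D-LEC replicate 1.

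Fast fibre genes outweighed slow ones in D-LEC in their summed level per kilobase, though not in every pair. Of 14 members typical of fast fibres, 11 were higher in D-LEC in both comparisons, as were 4 of 9 typical of slow fibres or heart. Of these, 3 fast and 3 slow members had passed the filter through D-LEC alone, and without them the counts were 8 of 11 and 1 of 6, beside 13.8% of all genes. The difference between fast and slow members was not tested. Per kilobase, fast members made up 82.8%, 86.4% and 84.9% of the sum of these 23 genes in D-LEC, 70.9% to 78.3% in LN-BEC and 26.3% to 38.4% in LN-LEC, where Tnnt1 alone held most of the slow sum. Within pairs of fast and slow counterparts, Tnni2 made up 90.9% to 100% of Tnni2 and Tnni1 in D-LEC, Tnnc2 89.6% to 93.7% of Tnnc2 and Tnnc1, and Mylpf 87.6% to 89.4% of Mylpf and Myl2. Tnnt3 made up a smaller share of Tnnt3 and Tnnt1, at 66.7% to 70.4%. The share of Myoz1 in Myoz1 and Myoz2 was 37.8%, 51.7% and 41.6%, and that of Mybpc2 in Mybpc2 and Mybpc1 was 47.3%, 65.0% and 23.5%, so that in both pairs the slow form led in 2 of 3 D-LEC libraries.

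Most of the muscle genes were ordered alike over the D-LEC libraries. A mean of at least 10 fragments in D-LEC was reached by 32 of the 39 genes, and 27 of these (84.4%) were lowest in D-LEC replicate 1, where 35.2% of 12077 named genes at that depth were. Replicate 3 was the highest for 21 of the 32. The median ratio to replicate 1 was 1.38 in replicate 2 and 1.58 in replicate 3, against 0.98 and 0.998 over all genes. Among the 21 genes at this depth that were higher in both comparisons, 18 were lowest in replicate 1, with median ratios of 1.45 and 1.82, and all 12 fast fibre genes at this depth were. The ratios were far from uniform within the list. Tnni2 had ratios of 2.52 and 3.17 in replicates 2 and 3, whereas Acta1 had ratios of 1.13 and 1.20. With 3 libraries this order has no test, and genes within a library are not independent of each other.

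A few genes did not follow that order. Pygm was highest in D-LEC replicate 1, with ratios of 0.62 and 0.72, and without Pygm the sum of the other 23 genes that were higher in both comparisons was 1821, 2581 and 3061. Actn2 was nearly level over the 3 libraries (ratios of 0.97 and 0.95), and Mybpc1, Myoz2 and Des were lowest in replicate 2. Genes that were not higher in D-LEC in both comparisons followed the order too: 9 of 11 at this depth were lowest in replicate 1, among them Ttn (ratios of 1.71 and 1.43), Eno3 (1.46 and 1.35), Casq1 (1.29 and 1.06) and Neb (1.04 and 1.17). Some of these 11 genes were higher in D-LEC in a single comparison, such as Tpm2 over LN-LEC and Tnnt1 over LN-BEC. The share lowest in replicate 1 was 81.8% among the 11 and 85.7% among the 21 that were higher in both comparisons. The median ratios of the 11 were 1.29 and 1.43, against 1.45 and 1.82 for the 21.

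**Figure D4:**
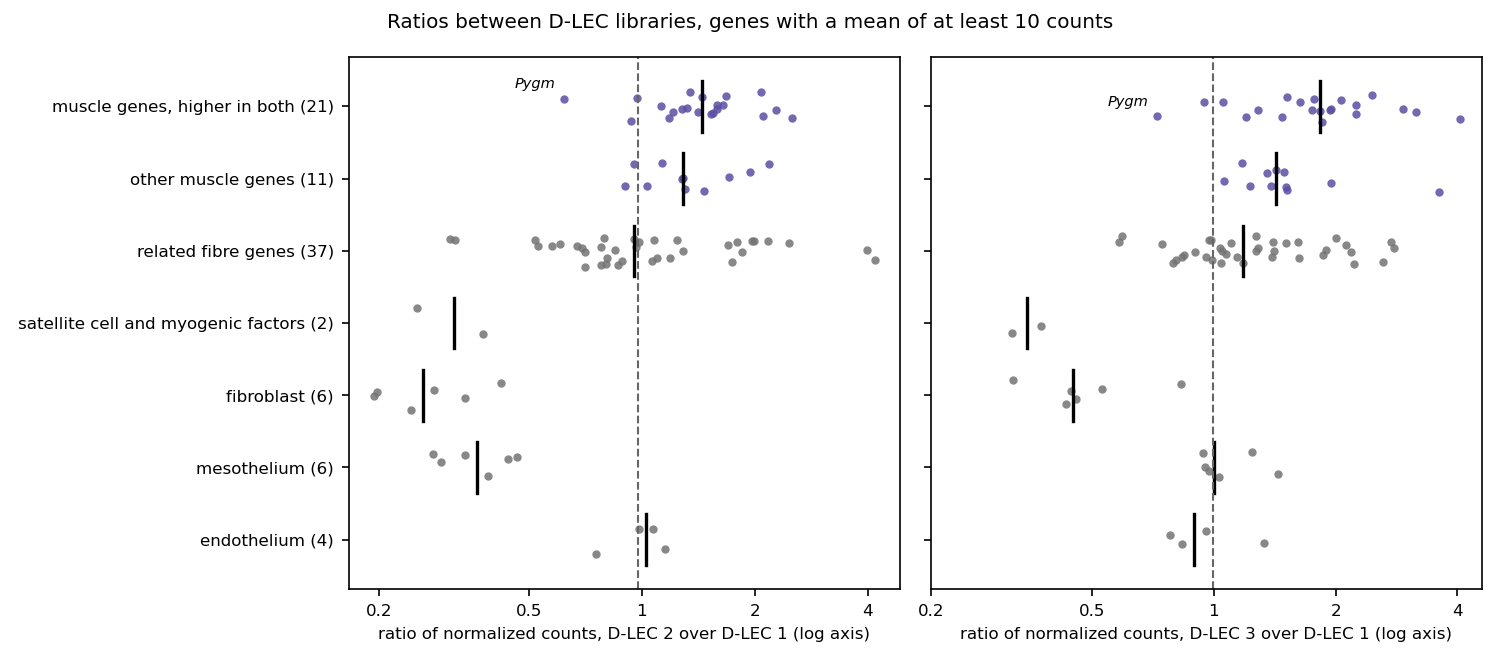
Ratio of normalized counts in D-LEC replicate 2 (left) and replicate 3 (right) to replicate 1 on log axes, for genes with a mean of at least 10 counts; each point is a gene, bars are medians of each group and the dashed line is the median of all named genes (0.98 and 0.998). Most muscle genes lie right of the line and Pygm lies left of it. The fibroblast markers and the satellite cell factors at this depth, Myf5 and Myod1, lie left of it in both panels.

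Many markers of other cell types followed other orders over the D-LEC libraries. Satellite cells are the stem cells of muscle, and their factors Myf5 (83.2, 21.0 and 26.4 in D-LEC) and Myod1 (26.5, 10.02 and 9.92) had no fragment in any lymph node library and were highest in D-LEC replicate 1. The summed level of the 9 satellite cell and myogenic factors was 0 to 7.54 over the lymph node libraries and 39.1 to 156 in D-LEC. Of the 8 that were tested, 4 were higher in D-LEC in each comparison, where 21.7% and 22.5% of all genes were. Myf5, Myod1 and Pax7 had passed the filter through D-LEC alone and could only be higher there, so these counts were partly fixed in advance. Pax7 was at 3.78, 1.002 and 4.13 in D-LEC and 0 elsewhere. Only Myf5 and Myod1 reached a mean of 10 fragments in D-LEC, and the other factors were not ordered alike. Pax3, Cdh15 and Calcr were highest in replicate 1, and Chrng in replicate 2. Pax7, Myog and Myf6 were highest in replicate 3, and of these Myog and Myf6 were lowest in replicate 1, as most muscle genes were. All 6 mesothelial markers, of the lining of body cavities, were higher in D-LEC in both comparisons, where 13.8% of all genes were. Their summed level was 717 to 2190 in D-LEC and 26.8 to 146 in lymph node libraries, and all 6 were lowest in D-LEC replicate 2. The 6 fibroblast markers summed to 3185 to 9978 in D-LEC and 2652 to 9831 over the lymph node libraries, and all 6 were highest in replicate 1 and lowest in replicate 2, with median ratios of 0.26 and 0.45. The 7 heart genes summed to 221 ± 23.2 (SD, n = 3) in D-LEC, 1134 ± 111 (SD, n = 4) in LN-LEC and 182 ± 42.4 (SD, n = 3) in LN-BEC, most of it Tnni3 in LN-LEC. Of the 6 that were tested, Nppa and Myl7 were higher in D-LEC in both comparisons, with Myl7 at 12.02 to 25.6, Ryr2, at 0 in D-LEC, was lower in both, and Tnni3 was lower than in LN-LEC. Myh6 was at 0 in D-LEC and was not tested. The 7 leukocyte markers summed to 85.1 to 199 in D-LEC and 199.6 to 911 over the lymph node libraries. The 4 endothelial markers went both ways over the D-LEC libraries, with median ratios of 1.03 and 0.90. Tie1 had ratios of 0.76 and 0.78, and Tek had ratios of 1.07 and 1.33, the latter above the 1.20 of Acta1. The part of muscle fibres or of any other cell type in the levels of the 39 genes was not tested.

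Other muscle fibre genes outside the list gave a mixed picture. Of 61 such genes, 56 were tested, and 29 (51.8%) were higher and 8 lower in D-LEC than in LN-LEC, where 21.7% of all genes were higher. Against LN-BEC 14 (25%) were higher and 9 lower, close to the 22.5% of all genes that were higher. In both comparisons 13 (23.2%) were higher and 4 lower, beside 13.8% and 15.3% of all genes. Sln, sarcolipin, an inhibitor of the calcium pump, was at 36.6, 90.2 and 99.98 in D-LEC, at 0 in LN-LEC and at most 1.75 in LN-BEC. Cox6a2, the muscle form of a cytochrome c oxidase subunit, was at 42.9, 77.1 and 90.9 in D-LEC and at most 9.45 elsewhere. Both were lowest in replicate 1, as were Pgam2, muscle phosphoglycerate mutase (15.1, 30.1 and 42.1), and Ckmt2, mitochondrial creatine kinase (18.9, 32.1 and 38.0). Smpx, a small muscle protein, and Trdn, triadin of the calcium release complex, were also higher in both, at 8.02 to 21.5 and 28.1 to 56.2 in D-LEC, as was Musk, the kinase of the neuromuscular junction, at 7.01 to 22.7. Smpx, Trdn and Musk were lowest in replicate 2, and Musk was highest in replicate 1. Further genes were also higher in D-LEC without being lowest in replicate 1. Jph1, which joins the sarcoplasmic reticulum to the surface membrane, was at 800, 950 and 764 in D-LEC and at 84.0 to 187 in lymph node libraries. Kbtbd10, a sarcomere protein of the kelch family, was at 169, 146 and 134 in D-LEC and at most 21.0 elsewhere. Fabp3, a fatty acid carrier of muscle and heart, was at 65.6, 58.1 and 92.5 in D-LEC and at most 18.9 elsewhere. Over the whole list, 14 of 37 genes with at least 10 fragments on average were lowest in D-LEC replicate 1, or 37.8%, close to the 35.2% of all genes.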

How the data were processed

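RNA-Seq counts from 10 libraries of sorted mouse endothelial cells were used, and groups were taken from the sample labels. The authors amplified total RNA with the Ovation RNA-Seq System V2, sequenced read pairs, trimmed reads (Fastx-trimmer), mapped them by STAR (version not given in the sources used here) onto mm9 and assigned them to gene symbols with featureCounts 1.4.4, ignoring strand and keeping only uniquely placed fragments. The deposited values are raw counts of fragments per gene, and the exon length of each gene that the authors deposited beside them was used for levels per kilobase. Depth was 22429940 to 48906070 fragments, so that 3 fragments correspond to a CPM of 0.0613 to 0.134, a limit that covers counting error only.

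Counts were divided by DESeq2 size factors for display. The quasi-likelihood F test of edgeR 4.0.16 (R 4.3.3), with TMM factors and a robust fit over the 10 libraries in which each population had its own mean, gave p-values that were adjusted by Benjamini-Hochberg over 15355 genes. A gene was tested if its normalized count averaged at least 1 in some population. An adjusted p under 0.05 was a call. Predicted genes, RIKEN clones and LOC symbols (3774) were left out. The fit was tested on simulated data in which only genes with a mean of at least 10 counts were changed, so calls at lower counts were not covered. DESeq2 1.42.0, limma 3.58.1, other filters and fits that left out single libraries were alternatives. P-values set the difference between population means against the spread between libraries, each a pool of mice, as estimated over all 3 populations. Where a lymph node population had no count, a fold is a lower limit against 3 counts over the population. Where it had 1 to 3, no fitted fold is given in the text, and the plot of fold changes draws it as an open symbol. Shared sequence was counted as identical windows of 100 bases between GENCODE vM1 transcripts. All 39 genes are named by role, and of 61 further fibre genes at most 10 that were higher in both D-LEC comparisons. The genes and lists were chosen with earlier results of these data known.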

Additional observations from a re-analysis of the deposited data

How the results depend on the processing

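The counts of muscle genes called stayed within 1.5 times of those reported under all 17 alternatives: leaving out single libraries gave 24 to 30 calls for D-LEC over LN-LEC, 26 to 31 for D-LEC over LN-BEC and 8 to 12 for LN-BEC over LN-LEC. Over all genes the same fits gave 6234 to 7231, 6584 to 7393 and 5075 to 6036 calls. Of 70 calls for single muscle genes, 16 were lost in at least 1 alternative and none reversed. The number of muscle genes higher in D-LEC in both comparisons ranged from 20 to 25, and the genes lost were Actn2, Mybpc1, Myh4, Myh7, Myl3 and Ryr1; the filter of at least 10 counts in at least 3 libraries left 31 of the 39 to be tested and gave 20. The ratio of the summed level of the 39 genes in D-LEC to that in lymph node libraries was 1.11, became 3.04 without Ttn and Pygm, the genes with the most counts, and 4.44 per kilobase of exon, where long genes weigh less; leaving out single libraries, an alternative chosen after seeing the data, gave 1.04 to 1.20. With at least 30 counts, 22 of 26 muscle genes were lowest in D-LEC replicate 1. No alternative was computed for the shares per kilobase. No paired analysis was possible because the labels carry no replicate numbers or pairing, and replicate numbers here only name libraries in record order. Low counts limit Actc1, Cav3, Tnni1, Tnnc1, Myl3, Myh4 and Myh7, and 3 D-LEC libraries cannot give a test of their order.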
